A study of Mus musculus with 36 samples.

Results

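The T cell receptor complex and the surface and signaling proteins that define mouse T cells were followed at the RNA level in mammary glands that carried intraductal tumors. The 10 genes were listed by name, with earlier results of these data known. They were the CD3 chains Cd3d, Cd3e and Cd3g, the zeta chain Cd247, and the coreceptor genes Cd4, Cd8a and Cd8b1. The others were the surface receptors Cd2 and Cd5, and the kinase Lck. All 10 were found among the 21650 genes of the expression table.

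The libraries came from total RNA of flash-frozen mammary tissue of lactating female mice, in which tumor cells or Matrigel alone had been delivered into the third gland through the teat canal after the pups had been weaned. The tumor cells were suspended in PBS with Matrigel. The 12 groups held 3 libraries each, 36 in all: 4T1 tumors in BALB/c mice, Py230 tumors in C57BL/6 mice, and glands of BALB/c and of C57BL/6 mice given only Matrigel, each at week 1, week 3 and week 6 post-inoculation (w p.i.). 4T1 is a metastatic mammary carcinoma line of BALB/c origin, used here with a luciferase reporter, and Py230 is a line derived from mammary tumors of C57BL/6 mice that carry the polyoma middle T oncogene under the MMTV promoter. Each tumor type is therefore 1 cell line in 1 strain, so that the line and the strain of the host cannot be told apart in a comparison of the tumors, while the Matrigel glands compare the strains alone. For the C57BL/6 groups the labels name no allele, although the study also kept an albino C57BL/6 stock with an NF-κB luciferase transgene. The age of the mice at collection is not given in the sources used here.

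The αβ T cell receptor binds its ligand but has no signaling tail of its own. The invariant CD3 chains and the zeta chain carry the tyrosine motifs that the kinase Lck phosphorylates, and Zap70 then docks on them and passes the signal to the adaptor Lat. CD4 and CD8 bind MHC class II and class I, respectively, and bring Lck to the complex, CD2 is an adhesion receptor, and CD5 dampens the signal. The CD3 chains are the most specific of these markers, whereas Cd4 and Cd8a are also transcribed in subsets of mouse dendritic cells, Cd247, Cd2 and Lck in natural killer (NK) cells, and Cd2 and Cd5 in B cells or subsets of them.

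Each deposited value is a score, the place of a gene within its library in units of the SD over all genes, with the library mean at 0. Scores compare a gene between libraries, but they have no length correction, so no statement is made on which of the genes is the more abundant. The replicate libraries of a group correlated at 0.947 or above and no pair of the 36 exceeded 0.993. The labels number the replicate libraries as separate tumors or glands, and the study calls its tumor samples independent. The p-values rest on the spread between these libraries, with a single estimate per gene from all 12 groups. They do not measure the spread within the compared groups alone. The mean normalized counts that the authors give for the 10 genes lay between 52.3 (Cd8b1) and 249 (Cd4), at the 29.9th to 51.5th percentile of all genes. The mean score of 6 epithelial markers lay between 0.756 and 1.74 in the 36 libraries, and that of 5 skeletal muscle markers, from tissue next to the gland, between -0.663 and 2.97, with a correlation of -0.446 with the mean of the 10 genes. Its part in the results was not tested. In whole tissue, fewer T cells and less RNA per T cell cannot be told apart.

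The 3 CD3 chain genes lie side by side on chromosome 9 of the mouse genome (mm10): Cd3g at chr9:44969572-44980431 on the minus strand, Cd3d at chr9:44981786-44987339 on the plus strand, and Cd3e at chr9:44998740-45009627 on the minus strand. Cd3d and Cd3g are transcribed away from each other from start sites 1355 bases apart, and 11400 bases separate Cd3d from Cd3e. Lck lies at chr4:129548344-129573641 on the minus strand. Annotated genes overlap Cd3e, Cd247 and Lck, in part on the opposite strand, and since the strand setting of the counting is not stated, reads of the overlapping stretches cannot be told apart. The 250 bases before the start site of these 4 genes, from RefSeq on mm10, are shown because Cd3d, Cd3e and Cd3g are neighbours. Cd3e and Cd3g also had the highest correlation of any pair of the 10 over the 36 libraries, and Lck is the kinase that acts on their products. The windows are chr9:44980432-44980681 (Cd3g, minus strand), chr9:44981536-44981785 (Cd3d, plus), chr9:45009612-45009861 (Cd3e, minus) and chr4:129573642-129573891 (Lck, the upstream start site, minus). The last bases of the Cd3e window overlap the annotated first exon of that gene. They read 5′ to 3′ on the strand of the gene, and capitals mark the motifs named after them.
Cd3g: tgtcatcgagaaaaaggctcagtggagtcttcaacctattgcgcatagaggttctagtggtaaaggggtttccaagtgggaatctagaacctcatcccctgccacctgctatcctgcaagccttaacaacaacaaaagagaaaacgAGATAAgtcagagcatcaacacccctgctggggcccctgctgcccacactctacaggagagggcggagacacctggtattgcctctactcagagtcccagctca
Cd3d: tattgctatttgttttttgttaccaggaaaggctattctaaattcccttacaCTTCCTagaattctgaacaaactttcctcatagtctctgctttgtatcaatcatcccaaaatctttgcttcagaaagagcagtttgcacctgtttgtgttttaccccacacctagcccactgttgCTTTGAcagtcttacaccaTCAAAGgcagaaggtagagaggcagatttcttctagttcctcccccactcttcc
Cd3e: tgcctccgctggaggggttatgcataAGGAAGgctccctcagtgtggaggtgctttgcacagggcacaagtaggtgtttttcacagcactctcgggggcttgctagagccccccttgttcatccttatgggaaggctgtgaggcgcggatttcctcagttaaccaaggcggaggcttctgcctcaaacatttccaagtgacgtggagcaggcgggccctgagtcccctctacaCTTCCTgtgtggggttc
Lck: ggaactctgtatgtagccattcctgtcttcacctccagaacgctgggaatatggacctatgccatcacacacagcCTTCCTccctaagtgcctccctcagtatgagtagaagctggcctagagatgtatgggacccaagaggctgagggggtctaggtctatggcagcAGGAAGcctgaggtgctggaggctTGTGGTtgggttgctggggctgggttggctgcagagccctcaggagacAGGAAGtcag

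Motifs of factors active in lymphocytes or of the core promoter were searched for on both strands: TGTGGT for RUNX factors, CTTTGA for TCF/LEF factors, AGATAA for GATA factors, AGGAAG for ETS factors, CAGCTG for the E-box and TATAAA for the TATA box. The Cd3g window held the GATA letters, at position -104 from the start site. The Cd3d window held the ETS letters once and the TCF/LEF letters in both orientations, and the Cd3e window held the ETS letters in both orientations. In the Lck window the ETS letters occurred 3 times and the RUNX letters once. No matches overlapped in these windows. RefSeq windows were found for 7 of the 10 genes, 8 windows in all with 2 for Lck, and not for Cd4, Cd8b1 and Cd2. The ETS letters were in 6 of these 8 windows and in 29.5% of all 32851 windows, the RUNX, TCF/LEF and GATA letters in 1 window each against 14.0%, 13.8% and 9.99% of all windows, and the E-box and TATA letters in none against 13.0% and 12.4%. A match describes the letters and is not a binding site.

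Across the 12 groups the highest mean of each of the 10 genes was in a group of 4T1 tumors. The mean score was highest in 4T1 tumors at 1 w p.i. for Cd3d, Cd3e, Cd247, Cd4, Cd2, Cd5 and Lck, in 4T1 tumors at 3 w p.i. for Cd3g and Cd8b1, and in 4T1 tumors at 6 w p.i. for Cd8a. BALB/c Matrigel glands at 6 w p.i. had the lowest mean for Cd3d, Cd3g, Cd247, Cd8a, Cd8b1, Cd2, Cd5 and Lck. The exceptions were Cd3e, lowest in BALB/c glands at 3 w p.i., and Cd4, lowest in 4T1 tumors at 6 w p.i. For every gene, each group overlapped its neighbours in this order. A single library, replicate 1 of the 4T1 tumors at 3 w p.i., held the highest score of all 36 for each of the 10 genes.

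**Figure D1:**
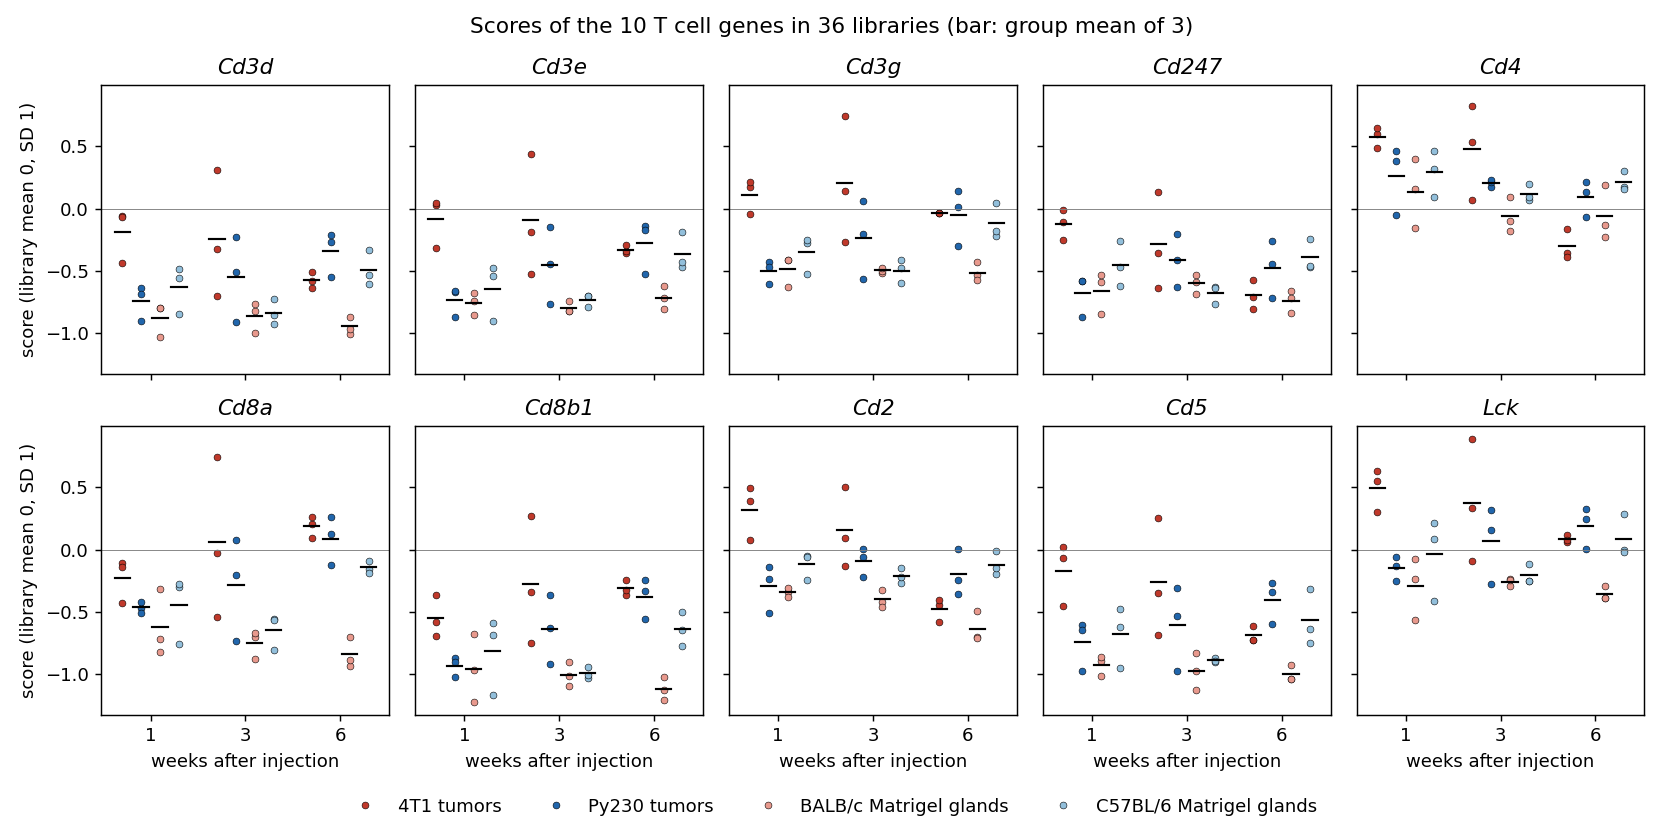
Scores of the 10 T cell genes in the 36 libraries, one panel per gene, with the week on the x axis and the score (SD units within a library) on the y axis; each point is a library, colored by tumor type or by the strain of the Matrigel glands, and each bar is a group mean of 3 libraries. In 4T1 tumors at 3 w p.i. the 3 libraries spread widely in every panel, with replicate 1 at the top.

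At 1 w p.i. the CD3 chains, the zeta chain, Lck, Cd2 and Cd5 scored above Py230 tumors in 4T1 tumors, by 0.552 to 0.653 score units, while no difference in the 3 coreceptor genes passed the test. The question here was whether T cell transcripts differ between the metastatic and the non-metastatic tumor at an early stage. The test was limma's moderated test with Benjamini-Hochberg adjustment over all 21650 genes at a threshold of 0.05. It called 7 of the 10 genes higher in 4T1 tumors and none lower, against 11.0% of all genes called higher and 8.43% called lower. The median difference of the 10 genes was 0.563, and that of all genes 0.00552.

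Cd3e, the chain shared by every CD3 dimer with Cd3d or Cd3g, scored 0.0279, -0.319 and 0.0429 in replicates 1 to 3 of the 4T1 tumors and -0.874, -0.674 and -0.660 in the Py230 tumors at 1 w p.i. Every 4T1 library lay above every Py230 library, with a difference of 0.653 (SE 0.166, adjusted p = 0.00804). Cd3g scored 0.170, -0.0456 and 0.217 against -0.606, -0.430 and -0.468, again without overlap, and differed by 0.615 (SE 0.163, adjusted p = 0.0102). Cd3d scored -0.0575, -0.440 and -0.0655 against -0.903, -0.634 and -0.683, and its difference of 0.552 (SE 0.174, adjusted p = 0.0275) also came from groups that did not overlap. For Cd3d and Cd3g the second 4T1 library was the lowest of its group and lay nearest to the Py230 libraries.

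Cd247 encodes the zeta chain, which carries most of the tyrosine motifs of the complex (chr1:165788681-165877277, plus strand). Its scores were -0.108, -0.250 and -0.00856 in 4T1 and -0.870, -0.580 and -0.581 in Py230 tumors, apart in all libraries, and the difference was 0.554 (SE 0.145, adjusted p = 0.00958). Lck scored 0.550, 0.303 and 0.633 against -0.250, -0.0592 and -0.132 and differed by 0.643 (SE 0.177, adjusted p = 0.0132), without overlap. Zap70, the kinase recruited after Lck has acted, also passed (0.643, adjusted p = 0.00364).

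The receptor genes Cd2 (chr3:101275899-101287939, minus strand) and Cd5 (chr19:10717116-10739002, minus strand) were also higher in 4T1 tumors. Cd2 scored 0.391, 0.0780 and 0.496 in 4T1 and -0.507, -0.238 and -0.142 in Py230 tumors, and its difference of 0.617 (SE 0.122, adjusted p = 0.00124) had the smallest p of the 10 genes. For Cd5 the scores were -0.0703, -0.456 and 0.0211 against -0.972, -0.607 and -0.643, and the difference was 0.572 (SE 0.179, adjusted p = 0.0263). Both genes were apart in all 3 libraries of each tumor.

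Among the coreceptor genes, Cd4 (chr6:124864692-124888221, minus strand) scored 0.596, 0.485 and 0.647 in 4T1 and -0.0477, 0.463 and 0.384 in Py230 tumors. Its groups did not overlap, yet the difference of 0.310 (SE 0.153, adjusted p = 0.153), with a 95% interval of -0.00475 to 0.624, did not pass the test. Cd8a (chr6:71373427-71379173, plus strand) and Cd8b1 (chr6:71322788-71337494, plus strand), neighbours on chromosome 6 that encode the CD8 alpha and beta chains, differed by 0.237 (adjusted p = 0.453) and 0.384 (adjusted p = 0.128). Cd8a was the single gene of the 10 whose groups overlapped, and the groups were apart in 39.1% of all genes. The intervals of Cd8a (-0.195 to 0.669) and Cd8b1 (0.0170 to 0.750) include values as large as those of the CD3 chains.

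The count of 7 rested on single libraries: it was 4 without replicate 1 and 1 (Cd2) without replicate 3 of the 4T1 tumors, and 2 (Cd3e and Cd2) without replicate 1 of the Py230 tumors. With only the 6 libraries of the comparison in the fit it was 4 (Cd3e, Cd3g, Cd247 and Lck). In these fits 8.46%, 7.55%, 9.78% and 6.87% of all genes were called in either direction. In the main fit 11.0% were called higher and 8.43% lower.

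Markers of other cells moved at the same time. All 6 pan-leukocyte genes were called higher in 4T1 tumors at 1 w p.i., with a mean score over the list of 1.48 to 1.82 in 4T1 and 0.891 to 1.35 in Py230 libraries. NK cell genes had 3 of 6 called higher and 1 lower (mean score -0.481 to -0.256 against -0.914 to -0.517), and B cell genes 4 of 9 higher (-0.767 to -0.747 against -1.17 to -0.903), but the B cell genes Ms4a1, Cd79a and Cd79b did not pass the test. Called higher were also 3 of 7 dendritic cell, 1 of 7 macrophage, 2 of 6 neutrophil and 1 of 8 lymph node stroma markers, and 1 of 6 adipocyte markers was lower. Among all genes 11.0% were called higher and 8.43% lower, so the macrophage and lymph node stroma counts were near the background. The part of these cells in the T cell gene differences was not tested.

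**Figure D2:**
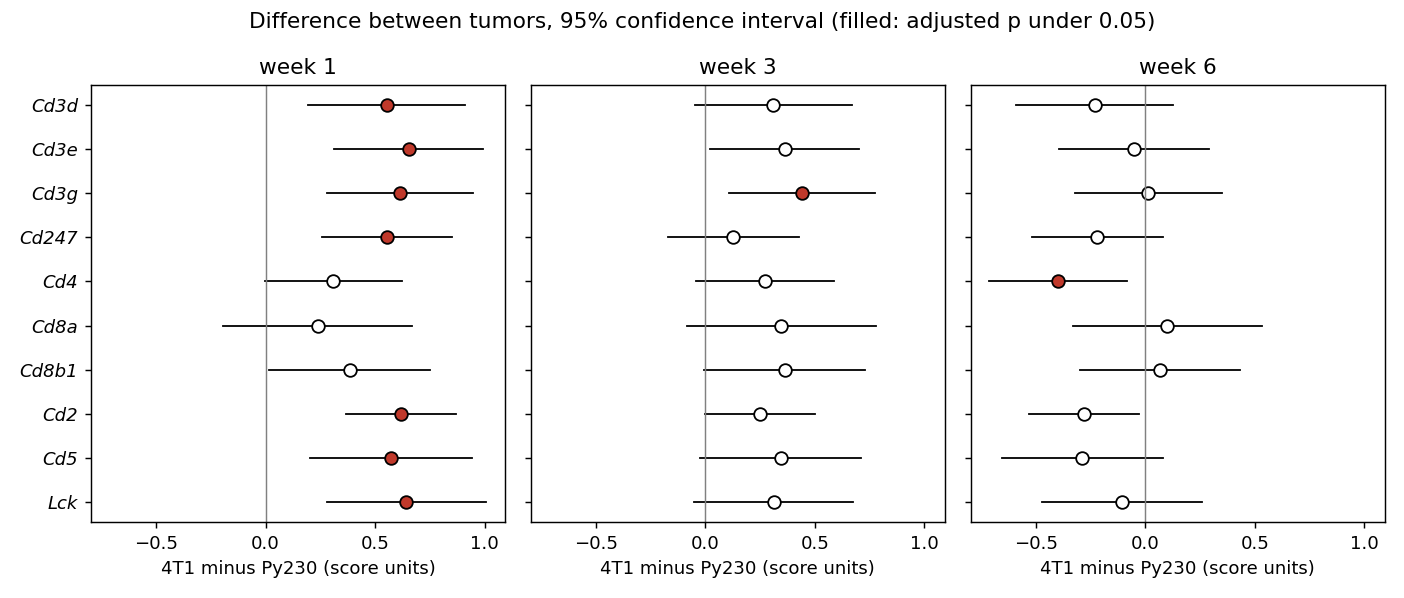
Difference of the score between 4T1 and Py230 tumors (x axis, score units) for each of the 10 genes (y axis), one panel per week; points are limma estimates, bars 95% confidence intervals, and filled points passed the adjusted threshold of 0.05. At 1 w p.i. all 10 estimates lie above 0 and 7 pass, at 3 w p.i. Cd3g alone passes, and at 6 w p.i. Cd4 alone passes, below 0.

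At 3 w p.i. the differences between the tumors kept their sign but Cd3g alone passed the test. Cd3g scored 0.748, -0.267 and 0.144 in 4T1 and 0.0650, -0.203 and -0.562 in Py230 tumors and differed by 0.441 (SE 0.163, adjusted p = 0.0406). The groups overlapped for this gene, because the second 4T1 library lay within the Py230 range. Its SD was 0.510 in 4T1 and 0.314 in Py230 tumors, wide beside an SE taken from all 12 groups. With only these 6 libraries in the fit it did not pass (limma adjusted p = 0.398). The other 9 differences were between 0.128 (Cd247) and 0.362 (Cd8b1), all above 0, and all 10 genes overlapped between the groups, where 32.6% of all genes did not. Among all genes 11.9% were called higher and 18.5% lower.

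The 3 libraries of 4T1 tumors at this time differed widely for the coreceptors. Cd8a scored 0.742, -0.540 and -0.0245 and Cd4 0.823, 0.0717 and 0.536, so that replicate 1 was far above and replicate 2 far below. Py230 tumors spread less for Cd4, at 0.171, 0.212 and 0.229, than for Cd8a, at 0.0763, -0.206 and -0.735. Without replicate 2 of the 4T1 tumors 9 of the 10 genes passed, and none did without replicate 1 or 3 of these tumors or replicate 2 or 3 of the Py230 tumors. Without replicate 1 of the Py230 tumors 2 genes passed. The adipocyte gene list set replicate 1 apart in both tumors, with a mean score of 0.782 in replicate 1 and 2.02 and 2.20 in the other 4T1 libraries, and 0.496 in replicate 1 against 1.79 and 2.05 in the Py230 tumors. Called higher in 4T1 tumors were 6 of 7 macrophage, 4 of 7 dendritic cell, 4 of 6 neutrophil and 3 of 6 pan-leukocyte markers, and B cell, NK cell and lymph node stroma markers had 4 of 9, 2 of 6 and 2 of 8 higher and 1 lower each. In that week 11.9% of all genes were called higher and 18.5% lower. The part of these cells in the T cell gene scores was not tested.

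At 6 w p.i. Cd4 alone passed the test, with a lower score in 4T1 tumors, and most of the other estimates were also below 0. Cd4 scored -0.163, -0.353 and -0.391 in 4T1 and 0.131, -0.0635 and 0.217 in Py230 tumors. The groups were apart, by -0.397 (SE 0.153, adjusted p = 0.0394). The other 9 differences lay between -0.287 (Cd5) and 0.102 (Cd8a), 7 of the 10 were negative, and the median was -0.163 against 0.0364 for all genes. Cd2 (-0.446, -0.582 and -0.405 against -0.242, -0.357 and 0.00359) and Cd5 were also lower in every 4T1 library, without passing (adjusted p = 0.0706 and 0.215). Among all genes 16.7% were called lower, 24.1% higher, and 58.2% had groups that did not overlap. The call of Cd4 was lost under quantile normalization (-0.301, adjusted p = 0.120) and without replicate 2 or 3 of the 4T1 or replicate 1 or 3 of the Py230 tumors, while 2 genes passed without replicate 2 of the Py230 tumors.

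Markers of neutrophils were called higher in 4T1 tumors for 6 of 6 genes at 6 w p.i., dendritic cell markers lower for 3 of 7, and epithelial markers lower for 2 of 6. In that week 24.1% of all genes were called higher and 16.7% lower. The mean score of the dendritic cell list was -0.376 to -0.173 in 4T1 and -0.0454 to 0.224 in Py230 libraries. No pan-leukocyte marker was called (1.29 to 1.37 against 1.15 to 1.30). The adipocyte list was low in both tumors, at -0.101 to 0.174 in 4T1 and 0.0714 to 1.10 in Py230 libraries, against 1.71 to 2.01 in BALB/c and 1.95 to 2.29 in C57BL/6 glands of that week. The part of these cells in the Cd4 difference was not tested.

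The change of the 4T1 minus Py230 difference from 1 to 6 w p.i. was tested directly. It was negative for all 10 genes and passed for 7: Cd2, Cd5, Cd3d, Cd247, Lck, Cd4 and Cd3e. Of all genes 12.4% were called lower and 15.0% higher. The change was -0.896 (SE 0.173, adjusted p = 3.11e-04) for Cd2, -0.859 (SE 0.253, adjusted p = 0.0126) for Cd5 and -0.707 (SE 0.216, adjusted p = 0.0160) for Cd4. By estimate these genes were above Py230 tumors at 1 w p.i. and below them at 6 w p.i. For Cd8a the change was -0.135, with a 95% interval of -0.746 to 0.476, and for Cd8b1 -0.316 (-0.834 to 0.202); neither passed. The count of 7 fell to 3 without replicate 1 of the Py230 tumors at 1 w p.i. In the same contrast 6 of 7 dendritic cell markers were called lower, with a median change of -0.891 against -0.728 for the 10 genes, as were 3 of 9 B cell, 2 of 6 NK cell and 1 of 6 pan-leukocyte markers, while 3 of 6 neutrophil markers and 1 of 6 NK cell markers were called higher. Their part in the change of the T cell genes was not tested.

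The change was also tested in steps. From 3 to 6 w p.i. the difference between the tumors changed by -0.670 (SE 0.216, adjusted p = 0.0227) for Cd4 and -0.527 (SE 0.173, adjusted p = 0.0249) for Cd2, the 2 genes that passed, where 26.7% of all genes did. No gene of the 10 passed for the change from 1 to 3 w p.i., where 15.3% of all genes did and 2 of the 10 had an unadjusted limma p under 0.05. The count of 2 was 0 without replicate 1 of the 4T1 tumors at 3 w p.i. or replicate 3 of the Py230 tumors at 6 w p.i., and 7 without replicate 2 of the 4T1 tumors at 3 w p.i. It was 4 without replicate 1 and 1 without replicate 3 of the Py230 tumors at 3 w p.i., and 1 without replicate 2 of the 4T1 tumors at 6 w p.i. For the change from 1 to 3 w p.i., 3 genes passed without replicate 1 of the 4T1 tumors at 3 w p.i. and 1 without replicate 2 of those at 1 w p.i.

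Within the 4T1 tumors, 4 genes fell from 3 to 6 w p.i., where 18.8% of all genes were called lower and 34.2% higher. Cd4 fell from a mean of 0.477 ± 0.379 to -0.302 ± 0.122 (SD, n = 3 libraries), a difference of -0.779 (SE 0.153, adjusted p = 1.36e-04). Cd2, at 0.503, -0.129 and 0.0969 before, fell to -0.446, -0.582 and -0.405 and changed by -0.635 (SE 0.122, adjusted p = 1.10e-04). Both genes lay lower in every library of the later time, and the groups were apart for 55.8% of all genes. Cd5 changed by -0.426 (adjusted p = 0.0475) and Cd247 by -0.406 (adjusted p = 0.0206). Cd8a (0.130) and Cd8b1 (-0.0373) did not pass. Without replicate 2 of the 4T1 tumors at 3 w p.i., 8 genes were called, and without replicate 1 or 2 at 6 w p.i., 2 were. Over the same step 6 of 9 B cell, 5 of 7 dendritic cell, 2 of 6 NK cell, 2 of 7 macrophage, 6 of 6 adipocyte and 2 of 5 skeletal muscle markers were called lower, 4 of 6 neutrophil markers higher, and none of 6 pan-leukocyte or 8 lymph node stroma markers. The mean score of the dendritic cell list was 0.227 to 0.666 at 3 w p.i. and -0.376 to -0.173 at 6 w p.i., that of the B cell list -0.999 to -0.460 and then -1.07 to -1.03, and that of the adipocyte list 0.782 to 2.20 and then -0.101 to 0.174. The part of these cells in the fall of the 4 genes was not tested.

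No gene was called from 1 to 3 w p.i. in the 4T1 tumors, or in either interval in the Py230 tumors, by limma at the adjusted threshold, and none had an unadjusted p under 0.05. The share of all genes called was 0.628% in the 4T1 tumors, and 20.0% and 6.03% in the Py230 tumors. Differences in the Py230 tumors ranged from -0.0622 to 0.296 from 1 to 3 w p.i. and from -0.109 to 0.375 from 3 to 6 w p.i. Without replicate 1 of the 4T1 tumors at 3 w p.i., 1 gene passed from 1 to 3 w p.i. In Matrigel glands no gene was called from 1 to 6 w p.i. either (0.0831% of all genes in BALB/c and 0.194% in C57BL/6 glands), with 1 gene and none of the 10 under an unadjusted p of 0.05.

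Against the Matrigel glands of their own strain, 4T1 tumors had 8, 9 and 5 of the 10 genes called higher in the successive weeks. None was called lower, and the shares of all genes called higher were 9.91%, 2.10% and 38.6%. Lck and Cd5 had the largest differences at 1 w p.i. and Cd8a and Cd8b1 the largest at 3 and 6 w p.i. The comparison asks what the tumor adds to the gland of the same mouse strain. At 1 w p.i. 8 of the 10 genes were called higher, where 9.91% of all genes were. Lck had a difference of 0.788 (SE 0.177, adjusted p = 0.00767) and Cd5 of 0.757 (SE 0.179, adjusted p = 0.00893). Cd3d, Cd3e, Cd2, Cd3g, Cd247 and Cd4 differed by 0.441 to 0.688, and Cd8a (0.392, adjusted p = 0.189) and Cd8b1 (0.406, adjusted p = 0.109) did not pass. This count was 2 without replicate 1 and 0 without replicate 3 of the 4T1 tumors, 1 without replicate 2 of the BALB/c glands, and 0 with only these 6 libraries in the fit. In these fits 2.19%, 0.148%, 0.614% and 0% of all genes were called in either direction. The median difference of the 10 genes was 0.561 to 0.630 in them, against 0.630 in the main fit.

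At 3 w p.i. 9 genes were called higher than in BALB/c glands, all but Cd247, where 2.10% of all genes were. The differences of the 9 were 0.539 to 0.811 with adjusted p between 0.0255 and 0.0496, all close to the threshold. Cd8a led with 0.811 (SE 0.210, adjusted p = 0.0384). No gene of the 10 was called without replicate 1 of the 4T1 tumors, without any single gland library, or with only these 6 libraries in the fit. Of all genes 0.0139% were called without that tumor library, 0.0693% to 0.346% without a gland library and 0% with these 6. The median difference of the 10 genes was 0.409 without the tumor library and 0.644 to 0.677 in the other fits, against 0.669 in the main fit.

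At 6 w p.i. 5 genes were called higher than in BALB/c glands, where 38.6% of all genes were called higher and 21.5% lower. Cd8a scored 0.0973, 0.207 and 0.262 in the 4T1 tumors and -0.931, -0.890 and -0.699 in the glands, a difference of 1.03 (SE 0.210, adjusted p = 1.71e-04). Cd8b1, with -0.366, -0.325 and -0.243 against -1.13, -1.20 and -1.02, differed by 0.807 (SE 0.178, adjusted p = 3.92e-04). These were the largest of the 10 differences at this time, and the libraries were far apart. Cd3g (0.481, adjusted p = 0.0131), Lck (0.441, adjusted p = 0.0342) and Cd3e (0.385, adjusted p = 0.0473) also passed. Cd4 lay lower than in the glands by estimate, at -0.246 (adjusted p = 0.168), and did not pass. Leaving out any single library of the 6 gave 3 calls, and so did cyclic loess normalization. The count of calls in this week was thus near the background.

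Markers of other cells were called in the same comparisons. The shares of all genes called higher there were 9.91%, 2.10% and 38.6% in the successive weeks, and 21.5% were called lower at 6 w p.i. In that last week the macrophage, lymph node stroma and B cell counts lay below the share called higher. At 1 w p.i. 6 of 6 pan-leukocyte, 6 of 7 macrophage, 5 of 6 NK cell, 3 of 6 neutrophil, 2 of 7 dendritic cell, 2 of 9 B cell and 2 of 8 lymph node stroma markers were higher in 4T1 tumors than in BALB/c glands, and none was lower. At 3 w p.i. 3 of 6 neutrophil, 2 of 7 macrophage, 2 of 9 B cell, 1 of 6 NK cell, 1 of 6 pan-leukocyte, 1 of 8 lymph node stroma and no dendritic cell markers were higher. In the last week 6 of 6 neutrophil markers, with a median difference of 1.22, 5 of 6 pan-leukocyte, 3 of 6 NK cell, 2 of 7 macrophage, 2 of 8 lymph node stroma and 1 of 9 B cell markers were higher, and 1 of 6 NK cell, 3 of 7 dendritic cell, 6 of 6 adipocyte and 5 of 5 skeletal muscle markers were lower. The part of these cells in the T cell gene differences was not tested.

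Between Py230 tumors and C57BL/6 Matrigel glands no gene of the 10 passed limma's test at any time, and none had an unadjusted p under 0.05. At 1 w p.i. the differences lay between -0.227 (Cd247) and -0.0207 (Cd8a), where 0.00924% of all genes were called. At 3 w p.i. all 10 were positive, from 0.0858 to 0.357, where 19.7% of all genes were called, and Cd247 and Cd8b1 did not overlap between the groups, where 37.3% of all genes did not; without replicate 3 of the Py230 tumors 1 gene passed. They lay between -0.117 and 0.260 at 6 w p.i., where the share of all genes was 47.6%. The widest SE of a difference was 0.210 (Cd8a), so differences of the size seen for the CD3 chains at 1 w p.i. between the tumors are inside some of these intervals. For Cd3e the interval was -0.435 to 0.247 at 1 w p.i. and -0.256 to 0.426 at 6 w p.i.

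**Figure D3:**
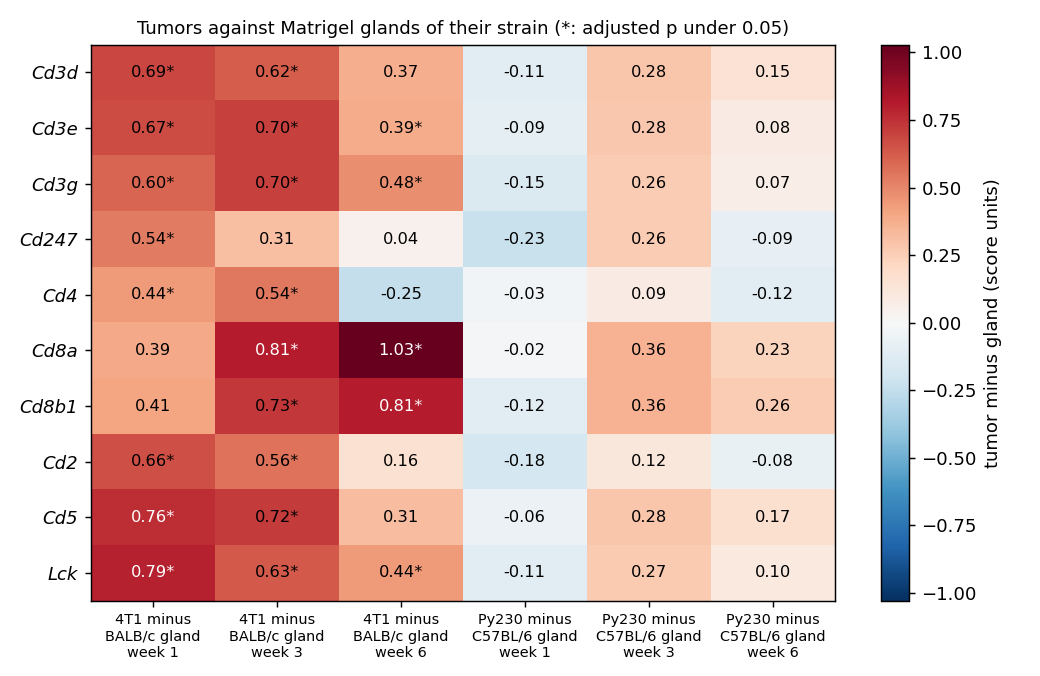
Heat map of the score difference between tumors and the Matrigel glands of their strain, with the 10 genes in rows and 4T1 minus BALB/c glands and Py230 minus C57BL/6 glands at each week in columns; color and printed value are limma estimates in score units, and a star marks an adjusted p under 0.05. The 4T1 columns hold 8, 9 and 5 stars, where 9.91%, 2.10% and 38.6% of all genes were called higher, and the Py230 columns none.

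The glands given Matrigel compare the strains without a tumor. At 6 w p.i. all 10 genes were lower in BALB/c than in C57BL/6 glands by estimate, and 9 of them, all but Cd4, did not overlap, where groups did not overlap for 24.7% of all genes. Only Cd2 passed the test, at -0.515 (SE 0.122, adjusted p = 0.0110), where 3.84% of all genes were called. For Cd8a the scores were -0.931, -0.890 and -0.699 in BALB/c and -0.153, -0.0916 and -0.185 in C57BL/6 glands, and the difference of -0.697 (SE 0.210, adjusted p = 0.0630) did not pass. At 1 and 3 w p.i. no gene passed by limma or had an unadjusted p under 0.05, where 3.06% and 3.77% of all genes were called. The call of Cd2 was lost without replicate 2 or 3 of the BALB/c or replicate 2 of the C57BL/6 glands, and with only these 6 libraries 5 genes passed.

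When the strain difference of the glands was subtracted from the difference between the tumors, Cd2 passed at 1 w p.i. and Cd8a at 6 w p.i. At 1 w p.i. the subtracted difference was 0.840 (SE 0.173, adjusted p = 0.0427) for Cd2 and between 0.413 and 0.898 for the other 9, with Lck the largest (0.898, adjusted p = 0.0773), where 0.305% of all genes were called. Without replicate 2 of the 4T1 tumors 7 genes passed, without replicate 3 of the BALB/c glands 3, without replicate 2 of the C57BL/6 glands 2, and none when any of 8 other libraries was left out or when only these 12 libraries were in the fit. The fits that gave 7, 3 and 2 called 8.24%, 1.87% and 1.09% of all genes, and those that gave none called 0% to 0.0554%. No gene passed at 3 w p.i. by limma, where 9.15% of all genes were called and 2 of the 10 had an unadjusted p under 0.05; without replicate 2 of the 4T1 tumors 3 did. At 6 w p.i. it was 0.799 (SE 0.297, adjusted p = 0.0490) for Cd8a and -0.129 (adjusted p = 0.715) for Cd4, where 25.5% of all genes were called. With each of the 12 libraries left out in turn, 1 gene passed without replicate 3 of the Py230 tumors or of the BALB/c glands and none otherwise, and cyclic loess normalization gave no call. With only the 12 libraries of that week, 3 genes passed.

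The scores of the coreceptors were also set against each other within each library. The difference between the Cd8a and the Cd4 score within a library, chosen after the values had been seen, changes with the balance of the transcripts, though its sign does not say which is the more abundant. In 4T1 tumors it was -0.705, -0.916 and -0.789 at 1 w p.i., -0.0812, -0.612 and -0.560 at 3 w p.i. and 0.260, 0.560 and 0.653 at 6 w p.i. Every library at 6 w p.i. lay above every earlier one. Py230 tumors went from -0.731 ± 0.269 (SD, n = 3) to -0.00783 ± 0.0543 over the same time. In 5 of the 6 groups of glands the mean lay between -0.784 and -0.689, and in C57BL/6 glands at 6 w p.i. it was -0.355 ± 0.0342. Because the quantity was chosen after its values had been seen, no test was run.

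Cd8b1 minus Cd4 went from -1.13 ± 0.144 to -0.00906 ± 0.179 in 4T1 tumors and from -1.20 ± 0.193 to -0.474 ± 0.0206 in Py230 tumors. Cd4 minus Cd3e went from 0.659 ± 0.127 to 0.0274 ± 0.152 in 4T1 tumors and from 1.00 ± 0.159 to 0.374 ± 0.0934 in Py230 tumors. The mean score of Cd4 relative to both CD8 chains and to Cd3e was thus lower at 6 than at 1 w p.i. in both tumor types, with no test. Relative to Cd3e this was not particular to the tumors. Cd4 minus Cd3e went from 0.933 ± 0.122 to 0.576 ± 0.0778 in C57BL/6 glands and from 0.892 ± 0.230 to 0.659 ± 0.134 in BALB/c glands. Cd8b1 minus Cd4 went from -1.11 ± 0.183 to -0.851 ± 0.0701 in C57BL/6 glands and from -1.09 ± 0.0354 to -1.06 ± 0.225 in BALB/c glands. Dendritic cells, in which Cd4 and Cd8a can be transcribed, had 3 of 7 markers called lower in 4T1 than in Py230 tumors at 6 w p.i. Of all genes 16.7% were called lower there. The part of dendritic cells in the coreceptor balance was not tested.

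**Figure D4:**
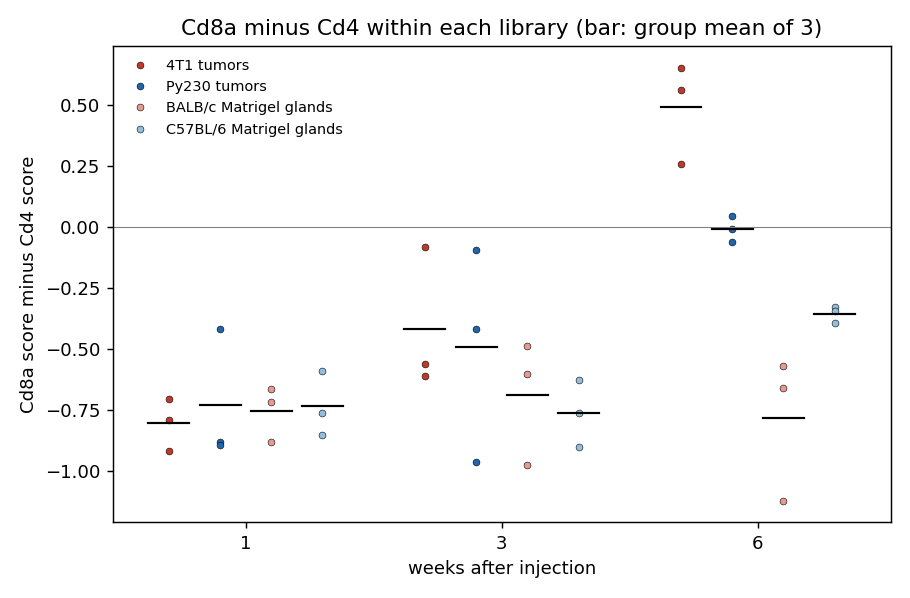
Score of Cd8a minus score of Cd4 in each of the 36 libraries (y axis, score units) by week for 4T1 tumors, Py230 tumors and Matrigel glands of both strains; points are libraries and bars group means. The 3 libraries of 4T1 tumors at 6 w p.i. lie between 0.260 and 0.653, above every 4T1 library of the earlier weeks.

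The 10 genes varied together over the 36 libraries, which share their groups and the standardization of each library. Pearson correlations of the 45 pairs had a median of 0.84, were highest for Cd3e with Cd3g at 0.98, and were lowest for Cd4 with Cd8a at 0.26. In the 18 tumor libraries Cd4 with Cd8a was -0.03, and in the 18 gland libraries 0.64. The coreceptor pair was thus the one least alike over all libraries, and these values describe the libraries without a test.

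The genes whose scores followed the mean of the 10 genes most closely, among the 15278 genes whose mean count was 50 or more, were Cd6 (r = 0.976), Zap70 (0.973), Nkg7 (0.967), Trbc2 (0.963), Lat (0.959), Il2rb (0.957), Ms4a4b (0.949), Sh2d2a (0.940), Skap1 (0.940) and Traf3ip3 (0.940), over 36 libraries. Cd6 is a receptor related to Cd5, Trbc2 a constant segment of the T cell receptor beta chain, Nkg7 a granule protein of cytotoxic cells, and Il2rb a chain of the interleukin 2 receptor. The mean score of the pan-leukocyte list had a correlation of 0.839 with the mean of the 10 genes, the B cell list 0.876 and the adipocyte list -0.411.

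Downstream of the complex, 27 of 28 listed T cell receptor signaling genes were measured. Of these 14 were called higher and 1 lower in 4T1 tumors, set against Py230 tumors, at 1 w p.i., 9 higher and none lower at 3 w p.i., and 1 higher and 5 lower at 6 w p.i., with median differences of 0.277, 0.293 and -0.103. In these weeks 11.0%, 11.9% and 24.1% of all genes were called higher and 8.43%, 18.5% and 16.7% lower. The 5 called lower at 6 w p.i. were thus near the background. Not every listed gene followed the T cell genes: correlations with the mean of the 10 ranged from -0.323 to 0.976 over the 36 libraries. The part of other cells, tumor cells included, in these calls was not tested. The smallest p at 3 w p.i. belonged to Nfatc2, a calcium-regulated transcription factor (0.384, adjusted p = 0.00122), and Fyn, a kinase of the same family as Lck (0.327, adjusted p = 0.00164). At 6 w p.i. they belonged to Tespa1 (-0.372, adjusted p = 1.96e-04) and Plcg1, the phospholipase that follows Lat (-0.207, adjusted p = 3.68e-04). Against BALB/c glands 20, 12 and 10 of the 27 were called higher in 4T1 tumors in the successive weeks and 0, 0 and 4 lower. The share of all genes called higher there was 9.91%, 2.10% and 38.6%, and 21.5% were called lower at 6 w p.i., so that the 10 called higher in that week were near the background. Against C57BL/6 glands 0, 0 and 1 were higher in Py230 tumors and 0, 1 and 0 lower, where 0.00924%, 19.7% and 47.6% of all genes were called.

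Of the 7 constant segments of the T cell receptor chains, Trac, Trbc1, Trbc2 and Trdc had a higher score in the 4T1 tumors at 1 w p.i. and passed, with differences of 0.601, 0.620, 0.481 and 0.586. Trdc, a segment of the delta chain, had the smallest p of them (adjusted p = 0.00192). Trbc2 and Trdc were called at 3 w p.i. and none at 6 w p.i. The near-identical Trbc1 and Trbc2 can share reads, so the split between them is uncertain. Of 11 transcription factors of T cells 4 were called higher at 1 w p.i. (Ets1, Ikzf3, Tbx21 and Tox) and none lower, and at 3 w p.i. Ets1, Satb1 and Tbx21 were called higher and Gata3 lower. At 6 w p.i. Bcl11b (-0.562), Tcf7 (-0.513) and Satb1 (-0.235) were called lower and Ets1 and Zbtb7b higher. In the successive weeks 11.0%, 11.9% and 24.1% of all genes were called higher and 8.43%, 18.5% and 16.7% lower. The transcription factors and constant segments named here, Trdc excepted, were chosen after their values had been seen.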

How the data were processed

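The authors prepared stranded libraries from total RNA, sequenced read pairs, mapped them with STAR to mm10, counted them per gene with summariseOverlaps and normalized them with DESeq2. Versions, the gene annotation and the strand setting of the counting are not given in the sources used here. Although its name speaks of read counts, the deposited expression table holds a score per gene and library, standardized by the authors to a mean of 0 and an SD of 1 in each of the 36 libraries over 21650 genes. The depth of the libraries is therefore unknown and no counting interval was computed. The deposited comparison tables gave gene symbols and the authors' mean normalized count. Their fold changes and p-values were not used, nor was a table of hallmark gene sets. A further 5384 genes were named from the mm10 reference, and 0 columns were left unmapped.

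Groups came from the sample labels. The scores of all 36 libraries were fitted in R 4.3.3 with limma 3.58.1, with 1 mean per group and robust empirical Bayes moderation along a mean-variance trend. The Benjamini-Hochberg adjustment ran over all genes, with a threshold of 0.05. Differences are in score units. The fit was tested on simulated data. A count test had been planned for raw counts and did not apply. Alternatives were quantile, cyclic loess and median scaling, a minimum mean count of 10, moderation without trend, a replicate block, a fit of only the groups compared, and leaving out each library. The 10 genes and the gene lists were chosen with earlier results of these data known. Beside the 10 genes, the text names by rule the 2 genes of smallest p at each week among 3 fixed lists of T cell genes (receptor signaling, transcription factors, receptor constant segments) and the 10 genes with the highest correlation with the mean of the 10 genes, each first scaled over the 36 libraries, among genes with a mean count of at least 50.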

Additional observations from a re-analysis of the deposited data

Results flagged for a closer look

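The effect of the tumor type differed between the times for 7 of the 10 T cell genes, by a limma test of the difference itself. From 1 to 6 w p.i. the 4T1 minus Py230 difference changed by -0.896 for Cd2, -0.859 for Cd5, -0.783 for Cd3d, -0.773 for Cd247, -0.750 for Lck, -0.707 for Cd4 and -0.704 for Cd3e, in score units, where 12.4% of all genes were called lower and 15.0% higher. These calls fell from 7 to 3 without replicate 1 of the Py230 tumors at 1 w p.i. From 3 to 6 w p.i. it changed by -0.670 for Cd4 and -0.527 for Cd2, where 26.7% of all genes were called, and neither passed without replicate 1 of the 4T1 tumors at 3 w p.i. or replicate 3 of the Py230 tumors at 6 w p.i. The effect also differed between the tumor and its glands across the strains for Cd2 at 1 w p.i. (0.840), where 0.305% of all genes were called, and for Cd8a at 6 w p.i. (0.799), where 25.5% were. When each of the 12 libraries of a week was left out in turn, none of the 10 genes passed in 8 of the 12 fits at 1 w p.i. and in 10 of the 12 at 6 w p.i. Those 8 fits called 0% to 0.0554% of all genes, and those 10 fits 21.3% to 24.7%.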

How the results depend on the processing

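Counts of called genes among the 10 moved as follows. With only the compared libraries in the fit, 4T1 against Py230 tumors gave 4, 0 and 2 in the successive weeks, 4T1 tumors against glands 0 and 0 at 1 and 3 w p.i., the strains at 6 w p.i. 5, the subtracted difference 0 at 1 and 3 at 6 w p.i., 4T1 tumors from 3 to 6 w p.i. 2, and the change of the tumor difference over that step 0. Quantile normalization gave 0 for the tumors at 6 w p.i., 2 for 4T1 tumors from 3 to 6 w p.i. and 1 for the change over that step. Chosen after the data were seen, cyclic loess gave 3 for 4T1 tumors against glands and 0 for the subtracted difference at 6 w p.i., and median scaling gave 0 for the tumors at 6 w p.i. and 2 for 4T1 tumors from 3 to 6 w p.i.

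Leaving out each library gave 1 to 7, 0 to 9 and 0 to 2 calls for the tumors in the successive weeks, 0 to 9, 0 to 10 and 3 for 4T1 tumors against glands, 0 to 1 for Py230 tumors against glands at 3 w p.i., 0 to 1 for the strains at 6 w p.i., and 0 to 7, 0 to 3 and 0 to 1 for the subtracted difference. It gave 0 to 1 and 2 to 8 for 4T1 tumors from 1 to 3 and 3 to 6 w p.i., and 0 to 3, 0 to 7 and 3 to 8 for the change of the tumor difference from 1 to 3, 3 to 6 and 1 to 6 w p.i. The fits with 0 calls for 4T1 tumors against glands called at most 0.148% of all genes at 1 w p.i. and 0.346% at 3 w p.i.

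Differences between the tumors that changed sign, none of them past the threshold, were Cd3e at 6 w p.i. under quantile normalization (0.0286) and median scaling (0.0239) and when a library was left out (-0.172 to 0.0176), Cd247 at 3 w p.i. (-0.0823 without 4T1 replicate 1, up to 0.305), and Cd3g (-0.110 to 0.111), Cd8a (-0.00441 to 0.190) and Cd8b1 (-0.0235 to 0.134) at 6 w p.i. without one of the libraries, each lowest without Py230 replicate 2. Of the 30 gene differences between the tumors, the minimum count of 10, moderation without trend, cyclic loess and the replicate block changed no call. The causes were not tested.

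The main fit did not pair libraries by replicate number. Of 54 same-numbered pairs within a week, 17 had a correlation of deviations from the group mean above 0.1 (range of all pairs -0.543 to 0.789). Among the libraries of the other tumor in their week, 4 of 18 tumor libraries correlated best with that of their own number. With 3 libraries a group, these values cannot decide whether the numbers mark pairs. With the replicate block the strains at 6 w p.i. gave 2 calls in place of 1, and the other counts stayed within 1.5 times. The depth of the libraries is unknown, which limits what can be said of low genes.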

Other observations

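Within the CD3 complex the zeta chain gene Cd247 and the gamma chain gene Cd3g were set side by side in each library, a pair chosen after the values had been seen. In 4T1 tumors the Cd247 score minus the Cd3g score was -0.279, -0.204 and -0.225 at 1 w p.i., -0.614, -0.374 and -0.500 at 3 w p.i. and -0.770, -0.674 and -0.539 at 6 w p.i. In Py230 tumors the means were -0.176 ± 0.0790, -0.183 ± 0.104 and -0.428 ± 0.0257 (SD, n = 3 libraries). The lowest means of all 12 groups were those of 4T1 tumors at 6 and 3 w p.i. and of Py230 tumors at 6 w p.i., while the 6 groups of Matrigel glands had means between -0.271 and -0.0993. No test was run. Cd8a and Cd8b1, the chains of the CD8 heterodimer, kept a difference of 0.253 to 0.500 in the group means of all 12 groups.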
